A study of Danio rerio with 4 samples.

Results

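The genes described here encode the proteins of the mitochondrial ribosome. They are the 75 rows, of 28346 genes in the deposited tables, whose Ensembl identifier has a symbol that starts with mrpl or mrps followed by a digit. By symbol, 47 belong to the large subunit and 28 to the small subunit. No symbol among them was shared by another identifier. All 75 passed the filter on low counts, among 15953 genes tested, with between 52 and 7776 estimated counts per gene in a library.

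The cells came from the caudal hematopoietic tissue, a vascular bed of the zebrafish larval tail where blood stem and progenitor cells lodge and expand. Wild-type larvae without treatment were taken at 5 days post fertilisation, and they carried GFP driven by kdrl, which marks endothelium, and DsRed driven by lyve1b, which marks veins and lymphatics. Sorted cells with both colours formed the vein group (2 libraries), and cells with GFP alone formed the non-vein group (2 libraries, which the titles also call control). All 4 libraries therefore share the GFP gate, and the non-vein group is whatever remains in that gate without DsRed.

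Mitochondria keep a small genome of their own and translate its messages on a dedicated ribosome. All proteins of that ribosome are encoded in the nucleus, made in the cytosol and imported, and together with the mitochondrial ribosomal RNAs they form a small subunit that reads the message and a large subunit that joins the amino acids. In vertebrates, the products of this ribosome are core subunits of the respiratory chain and of ATP synthase, so its output meets nuclear-encoded partners in the inner membrane.

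Totals were 15672159 and 16409447 estimated counts in vein libraries, against 18047152 and 18862102 in non-vein libraries. The label could be checked with lyve1b, which stood at 1953 and 1636 CPM (counts scaled to library size by TMM) in vein libraries and at 53.7 and 217 CPM in non-vein libraries, a 13.3-fold difference (edgeR quasi-likelihood test, Benjamini-Hochberg adjusted p = 0.0281). The gene behind the reporter common to both gates, kdrl, checks no label, but its level also differed, at 10504 and 7933 CPM in vein libraries, against 1998 and 2956 CPM in non-vein libraries (3.72-fold higher in vein; adjusted p = 0.0177). The labels do not say whether replicates came from different larvae or different sorts, and every p-value here reflects only how far these libraries spread, possibly for technical reasons.

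Messages of both subunits were scarcer in vein cells. The share of all counts that fell on the 47 large-subunit genes was 0.303% and 0.252% in vein libraries, against 0.789% and 0.677% in non-vein libraries. For the 28 small-subunit genes the share was 0.170% and 0.140% in vein libraries, against 0.430% and 0.384% in non-vein libraries. The groups did not overlap for either subunit. The mean large-subunit share was 0.278 ± 0.0354% in vein libraries and 0.733 ± 0.0791% in non-vein libraries (SD, n = 2 each), 2.64-fold lower in vein. The mean small-subunit share was 0.155 ± 0.0211% in vein libraries and 0.407 ± 0.0326% in non-vein libraries (SD, n = 2 each), 2.62-fold lower in vein. With 2 libraries against 2, the smallest two-sided exact permutation p is 0.333, which cannot pass the threshold, and these sums are given without a call. In bulk libraries, fewer cells that carry a message and less of that message per cell cannot be told apart.

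**Figure D1:**
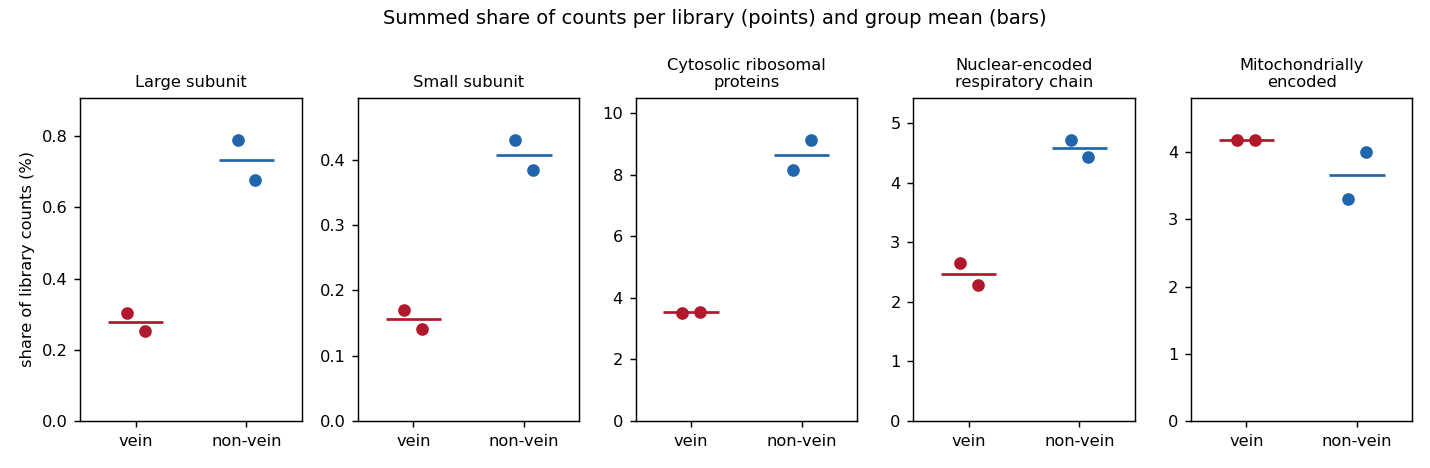
Share of library counts in percent for 5 groups of genes, with 1 point per library and a bar at the group mean, vein left of non-vein. The shares of both mitochondrial ribosomal subunits, of cytosolic ribosomal proteins and of nuclear-encoded respiratory chain genes were lower in both vein libraries, while the mitochondrially encoded share was not.

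The balance between the subunits did not separate the groups. The ratio of large-subunit to small-subunit counts was 1.78 and 1.80 in vein libraries, against 1.84 and 1.76 in non-vein libraries, so that the groups overlapped. On the FPKM scale, which divides by transcript length and library total, the same ratio was 1.96 and 2.03 in vein libraries, against 1.98 and 1.93 in non-vein libraries. The summed FPKM of all 75 genes was 5213 and 4257 in vein libraries, against 12838 and 11362 in non-vein libraries.

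Gene by gene, 35 of the 75 fell in vein cells at an adjusted p under 0.05 and 0 rose (edgeR quasi-likelihood test, Benjamini-Hochberg adjustment over all 15953 genes). Over all tested genes 7.33% fell and 4.11% rose, 11.4% in all, and among the 7673 genes with a mean CPM in the range of these 75, 10.5% fell. At an unadjusted p under 0.05, 65 were lower and 0 higher, against 17.7% lower and 12.3% higher over all tested genes. DESeq2 called 59 lower and 0 higher, against 14.3% lower and 10.1% higher among the 16729 genes it gave an adjusted p. The fitted log2 fold was below 0 for all 75, against 49.8% of all tested genes and 50.9% of the 7673 within their range of mean CPM. Both vein libraries lay below both non-vein libraries for 72 genes, against 33.1% of tested genes, and the 3 that overlapped were MRPL17, mrps21 and mrpl34. Of the 75, 56 were at least 2-fold lower in vein by the fitted value, against 26.8% of tested genes, and 6 at least 4-fold lower, against 13.1%.

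The call count was lower in some fits that left out a single library. Such a fit has fewer libraries to estimate spread, so a lost call does not by itself mean a smaller fold. The log2 fold of mrpl36, for example, was -1.321 with all libraries and -1.365 without vein replicate 1, where its call was lost. Without vein replicate 1 the test called 22 genes, without vein replicate 2 it called 20, and without non-vein replicate 1 it called 19, while 5.13%, 7.43% and 3.52% of all tested genes were called lower in those fits. Without non-vein replicate 2 it called 35, with 5.47% of all tested genes called lower. The fitted fold stayed below 0 for all 75 genes in each of these fits, except for mrpl34 without vein replicate 2, where it was 0.25. In 11 genes the call was made in the fit reported here and in all 16 alternatives: MRPL13, MRPL27, MRPS11, MRPS17, MRPS18A, MRPS2, mrpl18, mrpl20, mrpl54, mrpl9 and mrps18b. These included 6 large-subunit and 5 small-subunit proteins by symbol. The share of all tested genes called in every fit was not computed, and all fits draw on the same libraries.

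The size of the difference varied within the set. The median log2 fold of vein over non-vein was -1.34 (2.53-fold lower) for all 75 genes, beside 0.01 for all tested genes. It was -1.44 (2.71-fold lower) for the large subunit, where 22 of 47 fell, and -1.28 (2.43-fold lower) for the small subunit, where 13 of 28 fell. The large-subunit median minus the small-subunit median was -0.15, and without vein replicate 1 it was 0.10, a difference that was not tested. Log2 folds ran between -2.23 and -0.08, with an SD of 0.47 over the 75 genes, beside 2.42 over all tested genes. The median standard error of a log2 fold was 0.28 for the 75 genes and 0.77 for all tested genes. Neither these spreads nor the shares at least 4-fold lower are therefore compared at like precision. The 40 genes that missed the threshold had a median log2 fold of -1.02. Of these, 24 had an adjusted p between 0.05 and 0.1, the nearest being MRPS35 at 0.0504, whereas the nearest on the other side was MRPS9 at 0.0481. The 95% interval of the fold, which was built from the same edgeR test, included 0 for 10 genes, those with an unadjusted p of 0.05 or more.

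**Figure D2:**
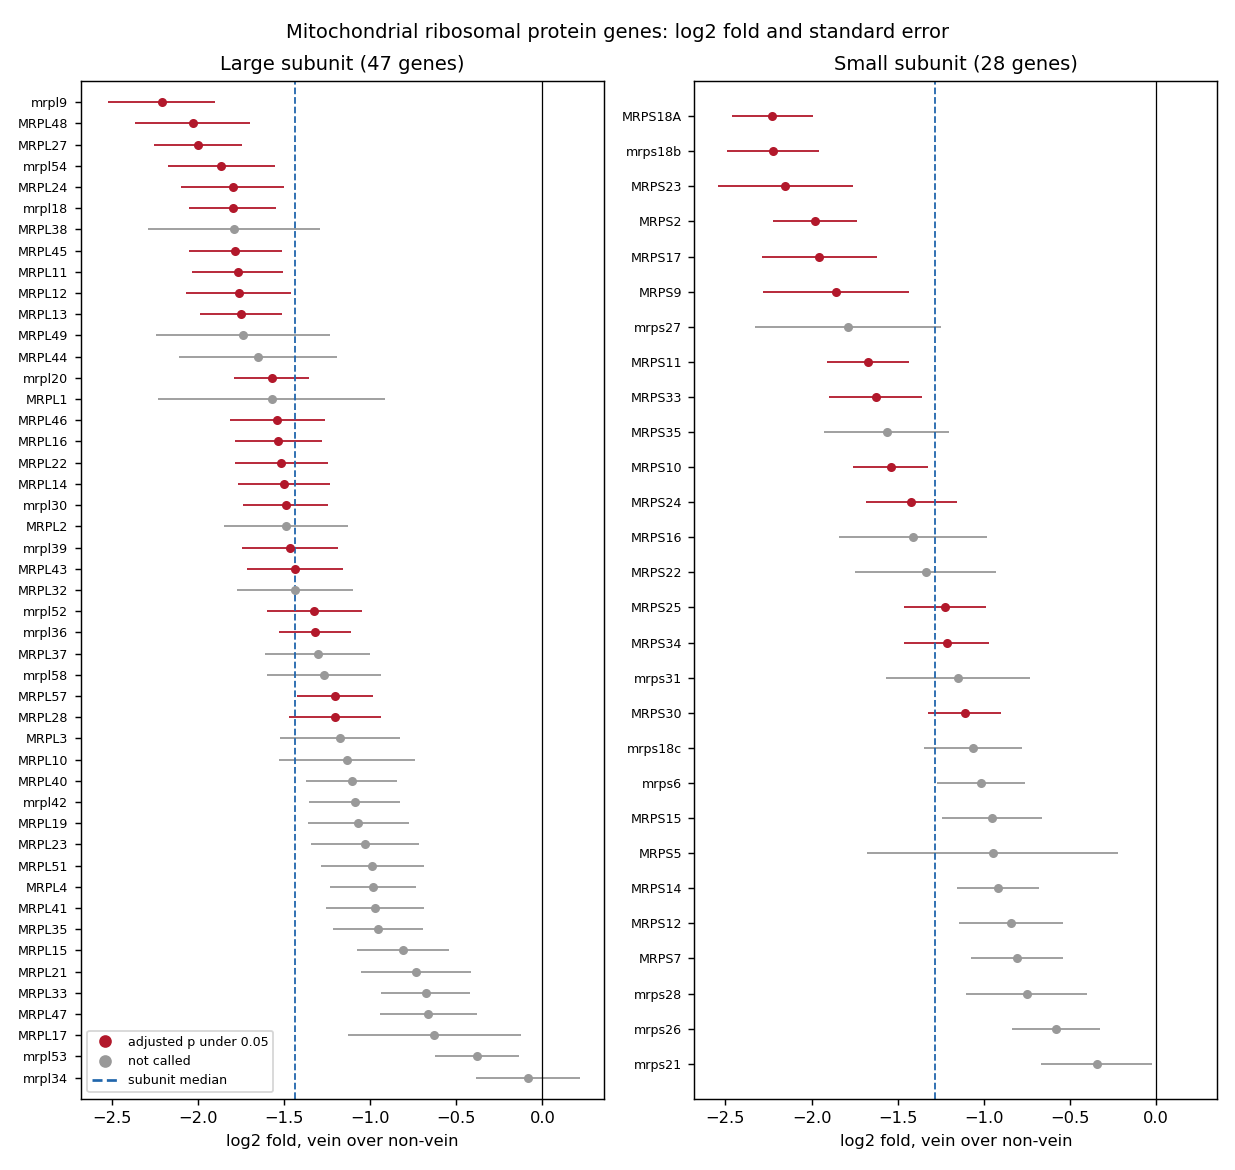
Log2 fold of vein over non-vein for each of the 47 large-subunit and 28 small-subunit genes, with bars of 1 standard error (edgeR fit, 2 libraries per group), red where the adjusted p was under 0.05, and a dashed line at the subunit median. All 75 points lie left of 0, and mrpl34, mrpl53 and mrps21 lie nearest to it.

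Among the large-subunit proteins that the lowest folds or p-values single out, mrpl9, the counterpart of a bacterial protein of the same number, had 22.3 and 32.6 CPM in vein libraries, against 135 and 120.02 CPM in non-vein libraries. That is 4.63-fold lower in vein (log2 fold -2.21, SE 0.31; edgeR adjusted p = 0.0175). MRPL27, also of bacterial ancestry and placed near the site of peptide bond formation in bacteria, had 46.96 and 41.07 CPM in vein libraries, against 195 and 158 CPM in non-vein libraries (4.01-fold lower; adjusted p = 0.0157). Both genes were picked for low folds or p-values, and as in 72 of the 75, both vein libraries lay below both non-vein libraries. mrpl20, a bacterial-type protein that binds the large ribosomal RNA, had 119 and 105 CPM in vein libraries, against 358 and 311 CPM in non-vein libraries (2.98-fold lower; adjusted p = 0.0175). MRPL13, another protein with a bacterial counterpart, had 52.0 and 46.5 CPM in vein libraries, against 173 and 159 CPM in non-vein libraries (3.36-fold lower; adjusted p = 0.0167). mrpl54, which bacteria lack, had 35.5 and 24.7 CPM in vein libraries, against 101 and 119 CPM in non-vein libraries (3.64-fold lower; adjusted p = 0.0235). Each of these 5 kept its call when any 1 library was left out. mrpl36, a short protein with a bacterial counterpart, had 109 and 103 CPM in vein libraries, against 261 and 269 CPM in non-vein libraries (2.50-fold lower; adjusted p = 0.0209). Its adjusted p was 0.0648 without vein replicate 1 and 0.0630 without vein replicate 2.

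The central protuberance is the crest of the large subunit that in the mammalian mitochondrial ribosome faces the small subunit's head. Grouped with it here were mrpl18, MRPL38, MRPL40, MRPL46 and MRPL48. Of these 5, 3 fell, and their median log2 fold was -1.79. mrpl18, which in bacteria carries the crest's own ribosomal RNA, had 95.6 and 112 CPM in vein libraries, against 415 and 308 CPM in non-vein libraries (3.48-fold lower; edgeR adjusted p = 0.0176). MRPL48, absent from bacteria, had 24.6 and 16.8 CPM in vein libraries, against 91.7 and 77.6 CPM in non-vein libraries (4.09-fold lower; adjusted p = 0.0228). The call of MRPL48 was lost without non-vein replicate 1 (adjusted p = 0.0601), and in that fit only 1 of the 5 genes was called, beside 2 without vein replicate 2. MRPL38 had 72.0 and 26.3 CPM in vein libraries, against 188 and 152 CPM in non-vein libraries, and missed the threshold (log2 fold -1.79, SE 0.50; adjusted p = 0.0758). Its vein libraries were far apart, yet both lay below both non-vein libraries.

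Beside the crest sits the stalk, which in bacterial and mammalian ribosomes recruits the translation factors. Of the 4 genes grouped with it here, MRPL10, MRPL11, MRPL12 and mrpl53, 2 fell, with a median log2 fold of -1.45. MRPL11, at the stalk base, had 102 and 103 CPM in vein libraries, against 414 and 284 CPM in non-vein libraries (3.41-fold lower; edgeR adjusted p = 0.0191). MRPL12, the mobile stalk protein, had 72.2 and 118 CPM in vein libraries, against 346 and 301 CPM in non-vein libraries (3.40-fold lower; adjusted p = 0.0254). Without vein replicate 1 neither was called, at an adjusted p of 0.0505 for MRPL11 and 0.0572 for MRPL12. mrpl53, a neighbour of the stalk that bacteria lack, had the smallest fold of the 4. It had 163 and 121 CPM in vein libraries, against 187 and 183 CPM in non-vein libraries. Its log2 fold of -0.38 had a 95% interval of -0.99 to 0.22 and an adjusted p of 0.371. The interval excludes the median fold of the large subunit, but mrpl53 was picked as an extreme and the interval was not adjusted for that.

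At the exit of the tunnel through which the new chain leaves, MRPL17, MRPL22, MRPL23, MRPL24, mrpl39, MRPL44, MRPL45 and MRPL47 are placed in mammals. Of these 8, 4 fell, with a median log2 fold of -1.49, and 1 was called without vein replicate 1, 2 without vein replicate 2 and 1 without non-vein replicate 1. MRPL45, which in mammals holds the ribosome to the inner membrane, had 46.8 and 66.3 CPM in vein libraries, against 194 and 195 CPM in non-vein libraries (3.44-fold lower; edgeR adjusted p = 0.0200). Its adjusted p was 0.0520 without vein replicate 1. MRPL22, which lines the tunnel, had 30.6 and 28.7 CPM in vein libraries, against 88.5 and 81.0 CPM in non-vein libraries (2.86-fold lower; adjusted p = 0.0274), and lost its call without either vein library or non-vein replicate 1 (adjusted p of 0.0676 to 0.0899). MRPL47 had 114 and 83.7 CPM in vein libraries, against 178 and 134 CPM in non-vein libraries, a log2 fold of -0.66 with a 95% interval of -1.36 to 0.04. MRPL17 had 52.4 and 20.2 CPM in vein libraries, against 63.4 and 48.9 CPM in non-vein libraries, a log2 fold of -0.63 with a 95% interval of -1.87 to 0.62. The vein libraries of MRPL17 lay on both sides of the lower non-vein library.

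The smallest difference belonged to mrpl34, a short bacterial-type protein of the large subunit. It had 264 and 156 CPM in vein libraries, against 229 and 216 CPM in non-vein libraries, so that 1 vein library exceeded both non-vein libraries and the other lay below both. The log2 fold was -0.08 with a 95% interval of -0.83 to 0.67 (edgeR adjusted p = 0.901). The interval does not show an equal level. It excludes the median of the large subunit, but mrpl34 was picked as an extreme and the interval was not adjusted for that.

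In the small subunit, the paralogs of bacterial protein S18 included the lowest 2 folds of all 75 genes. MRPS18A had 42.9 and 42.3 CPM in vein libraries, against 213 and 186 CPM in non-vein libraries (4.68-fold lower; log2 fold -2.23, SE 0.24; edgeR adjusted p = 0.0144). mrps18b had 47.1 and 35.1 CPM in vein libraries, against 195 and 189 CPM in non-vein libraries (4.67-fold lower; log2 fold -2.22, SE 0.27; adjusted p = 0.0151). In mammals the 3 paralogs occupy different places, MRPS18A in the large subunit despite its name. mrps18c, the third of them, had 71.5 and 49.6 CPM in vein libraries, against 121 and 131 CPM in non-vein libraries, a log2 fold of -1.06 that missed the threshold (95% interval -1.77 to -0.36; adjusted p = 0.0689). Paralogs can compete for reads in estimated counts, and the rule that divided them is not known here. MRPS30, the other protein that the mammalian structure places in the large subunit, had 192 and 172 CPM in vein libraries, against 423 and 364 CPM in non-vein libraries (2.16-fold lower; adjusted p = 0.0311), the smallest fold among the called genes. Leaving out either vein library or non-vein replicate 1 ended the call of MRPS30 (adjusted p of 0.0613 to 0.0972). With both genes moved to the large subunit, 24 of 49 large-subunit and 11 of 26 small-subunit genes fell, with median log2 folds of -1.44 and -1.28.

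Other small-subunit genes with large folds were MRPS2, MRPS17, MRPS23 and MRPS11. MRPS2, of bacterial type, had 43.8 and 39.3 CPM in vein libraries, against 173 and 155 CPM in non-vein libraries (3.95-fold lower; edgeR adjusted p = 0.0157). MRPS17, also of bacterial type, had 36.4 and 22.4 CPM in vein libraries, against 120 and 108 CPM in non-vein libraries (3.87-fold lower; adjusted p = 0.0251). MRPS11, which lines the platform of the subunit in bacteria, had 57.1 and 50.3 CPM in vein libraries, against 180 and 162 CPM in non-vein libraries (3.19-fold lower; adjusted p = 0.0178). In these 3 genes, named for low p-values or folds, the call held without any 1 library. MRPS23, a protein that bacteria lack, had 16.5 and 10.2 CPM in vein libraries, against 65.1 and 53.4 CPM in non-vein libraries (4.44-fold lower; adjusted p = 0.0283), with an adjusted p of 0.0900 without non-vein replicate 1.

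**Figure D3:**
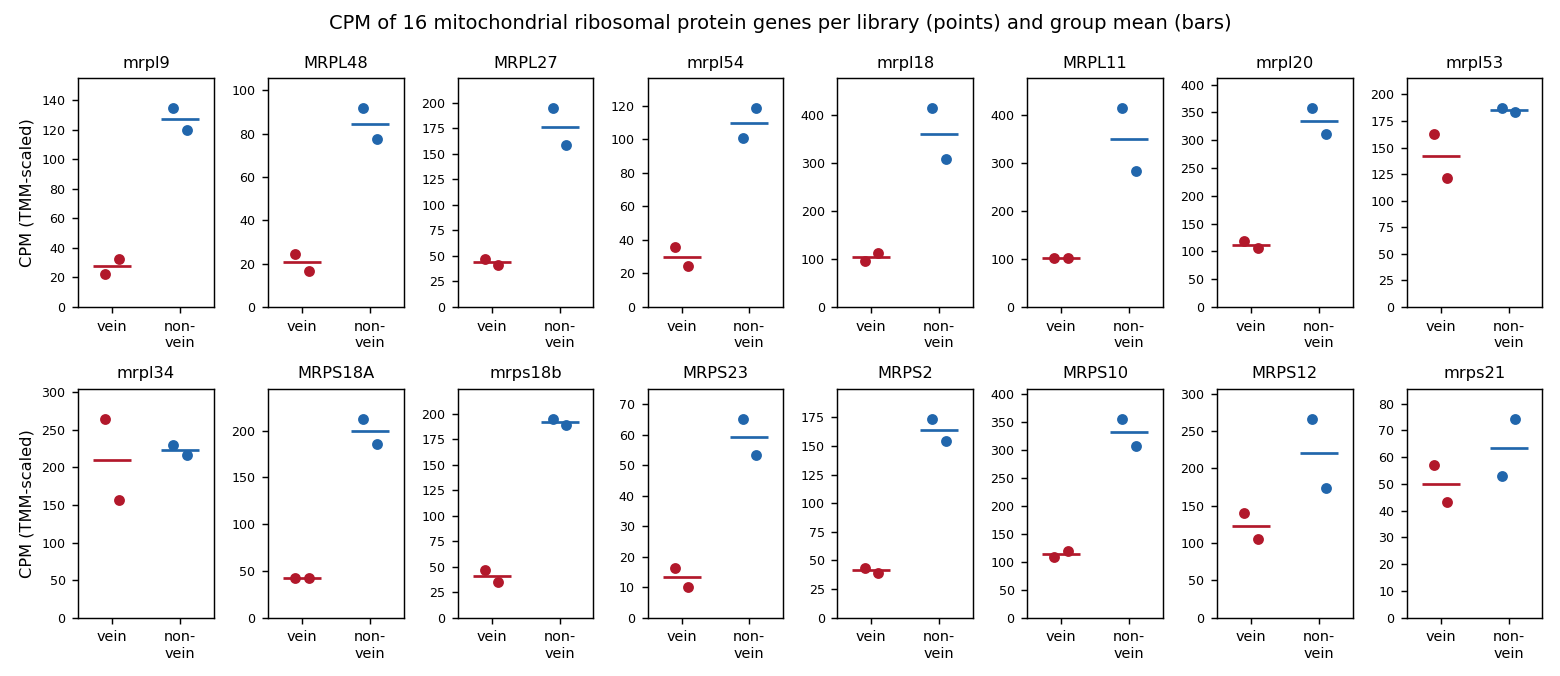
CPM (TMM-scaled) of selected large-subunit and small-subunit genes, with 1 point per library, a bar at the group mean, vein left of non-vein and a separate axis from 0 for each gene. The vein points lie below the non-vein points in every panel except those of mrpl34 and mrps21.

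The head of the small subunit grips the message and the transfer RNAs. Grouped with it here, from mammalian structures, were MRPS7, MRPS9, MRPS10, MRPS14, MRPS24, mrps31, MRPS33 and MRPS35. Of these 8, 4 fell, with a median log2 fold of -1.48. MRPS10 had 109 and 119 CPM in vein libraries, against 356 and 308 CPM in non-vein libraries (2.91-fold lower; edgeR adjusted p = 0.0176, and 0.0547 without vein replicate 1). MRPS33 had 34.3 and 29.0 CPM in vein libraries, against 94.8 and 101 CPM in non-vein libraries (3.09-fold lower; adjusted p = 0.0235, and 0.0513 and 0.0587 without vein replicates 1 and 2). For both genes, named for low p-values, both vein libraries lay below both non-vein libraries, as in 72 of the 75 genes and 33.1% of tested genes. MRPS24 had 89.2 and 65.4 CPM in vein libraries, against 221 and 192 CPM in non-vein libraries (2.68-fold lower; adjusted p = 0.0294), and lost the call without vein replicate 2 (0.0785) and without non-vein replicate 1 (0.0611). MRPS9 had 24.0 and 32.2 CPM in vein libraries, against 136 and 67.8 CPM in non-vein libraries (3.62-fold lower; adjusted p = 0.0481), the most divided pair of non-vein values. Its log2 fold was -1.27 without non-vein replicate 1, beside -1.86 with all libraries, and its adjusted p was between 0.0612 and 0.174 without that library or either vein library. MRPS7, with 64.3 and 71.9 CPM in vein libraries, against 136 and 102 CPM in non-vein libraries, missed the threshold at a log2 fold of -0.81 (95% interval -1.47 to -0.14; adjusted p = 0.107).

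Some small-subunit genes lay nearer to 0. MRPS12, the decoding-centre protein, had 140 and 105 CPM in vein libraries, against 266 and 174 CPM in non-vein libraries (log2 fold -0.84, 95% interval -1.59 to -0.09; edgeR adjusted p = 0.130). mrps28 had 47.7 and 29.8 CPM in vein libraries, against 73.5 and 57.1 CPM in non-vein libraries (log2 fold -0.75, 95% interval -1.63 to 0.13). mrps26, which bacteria lack, had 64.3 and 66.8 CPM in vein libraries, against 88.1 and 108 CPM in non-vein libraries (log2 fold -0.58, 95% interval -1.22 to 0.05). In all 3 the vein libraries were the lower ones. mrps21, a small bacterial-type protein, had 57.1 and 43.0 CPM in vein libraries, against 52.8 and 74.2 CPM in non-vein libraries, and here the groups overlapped (log2 fold -0.34, 95% interval -1.15 to 0.46; adjusted p = 0.556). A p above the threshold in these genes does not show that the levels were equal.

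Ancestry did not divide the set by its medians. Of 46 genes grouped here as having a bacterial counterpart 21 fell, with a median log2 fold of -1.37. Of the 29 others, grouped here as specific to mitochondria, 14 fell, with a median of -1.34. The grouping was assigned for this report and does not follow the mammalian nomenclature for every gene. It puts mrps18b, though a paralog of S18, among the 29, and MRPS18A and mrps18c among the 46. The paralogs were thus not treated alike, and medians with MRPS18A among the others were not computed. Within the small subunit by structural place, the median was -1.04 for the 16 bacterial-type genes, of which 6 fell, and -1.45 for the 10 others, of which 5 fell. Within the large subunit the medians were -1.46 for 30 bacterial-type genes and -1.32 for 19 others, the opposite order. These are descriptions without a test of the difference.

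Levels can be compared between genes on the FPKM scale. The highest mean FPKM belonged to mrpl53, at 347 in vein libraries, against 482 in non-vein libraries, and to mrpl20, at 167 in vein libraries, against 530 in non-vein libraries. They were followed over the 4 libraries by MRPS10, at 146 FPKM in vein libraries and 453 FPKM in non-vein libraries, by mrpl18, at 125 FPKM in vein libraries and 464 FPKM in non-vein libraries, and by mrpl34, at 247 FPKM in vein libraries and 275 FPKM in non-vein libraries. Of the 10 highest in each group, 8 were shared. At the low end stood MRPL1, a bacterial-type protein, at 4.17 FPKM in vein libraries and 13.3 FPKM in non-vein libraries, and MRPL22, at 5.11 FPKM in vein libraries and 15.6 FPKM in non-vein libraries. The transcript length implied by the ratio of counts to FPKM was over 2500 bases for MRPS25, MRPL22, MRPS15 and MRPS9, against a median of 918 bases, which lowers the FPKM of these 4. MRPS15, for example, had 43.2 and 56.0 CPM but only 7.54 and 9.56 FPKM in vein libraries, against 85.3 and 106 CPM and 15.5 and 19.8 FPKM in non-vein libraries. The fold of MRPS15 missed the threshold (log2 fold -0.95, 95% interval -1.67 to -0.23; edgeR adjusted p = 0.0902), as did that of MRPL1 (log2 fold -1.57, 95% interval -3.21 to 0.06).

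The order of the genes by level was much alike in the groups, with a Spearman correlation of 0.895 over the 75 genes between the mean FPKM of vein and of non-vein libraries. The points of this correlation share transcript lengths and libraries, and it is a description. Ranks and folds come from the same libraries, so a smaller fold tends by arithmetic to move a gene up the order. In this way mrpl34 ranked 2 in vein and 11 in non-vein libraries, and mrps21 ranked 14 in vein and 38 in non-vein libraries. MRPL33 ranked 20 in vein and 44 in non-vein libraries. The log2 fold had a Spearman correlation over genes of 0.02 with mean FPKM and of -0.12 with implied length. The coefficient of variation of FPKM over the 75 genes was 90.8% and 84.5% in vein libraries, against 72.1% and 70.7% in non-vein libraries.

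**Figure D4:**
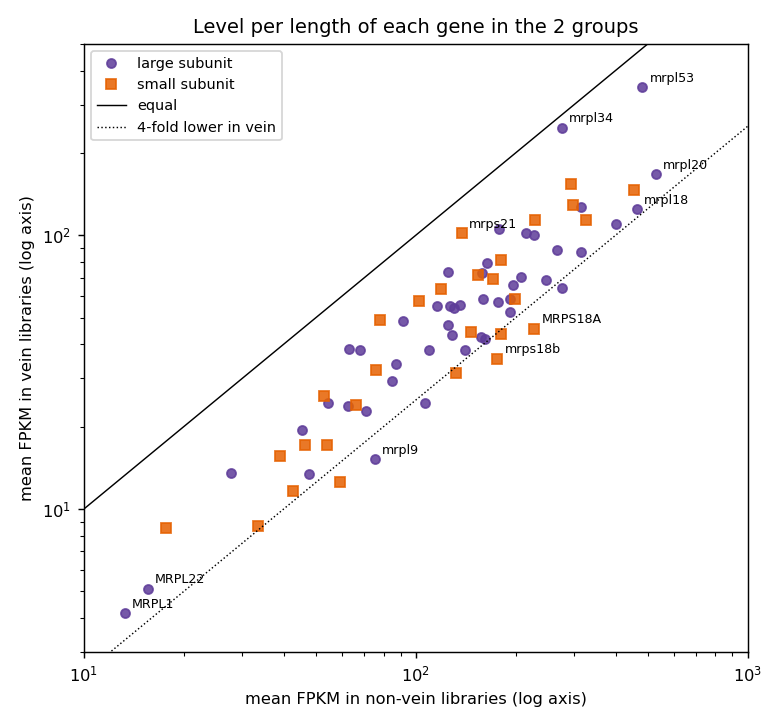
Mean FPKM of each gene in vein libraries (vertical, log axis) and in non-vein libraries (horizontal, log axis), circles for the large and squares for the small subunit, with lines of equal level and of a 4-fold lower vein level. All points lie below the line of equal level, with mrpl34 at 247 in vein and 275 in non-vein libraries closest to it.

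Replicates of a group also differed from each other in a shared direction. In 56 of the 75 genes vein replicate 1 was above vein replicate 2, with a median log2 ratio of 0.23. In 61 of the 75 non-vein replicate 1 was above non-vein replicate 2, with a median of 0.20. The same was not counted over all tested genes, so whether this direction is particular to the 75 was not tested. More than 2-fold gaps between vein replicates occurred in 6 genes, MRPS5, MRPL38, MRPL17, mrps27, mrps31 and MRPL44, named after their values were seen, with vein replicate 1 the higher in each. The widest was MRPS5, with 69.3 and 13.2 CPM in vein libraries, against 84.9 and 74.2 CPM in non-vein libraries (log2 fold -0.95, SE 0.73; edgeR adjusted p = 0.460). Between non-vein replicates only MRPS9 was more than 2-fold apart.

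Proteins of the same ribosome whose names follow another pattern gave similar values. All 5 measured, DAP3, AURKAIP1, chchd1, ptcd3 and GADD45GIP1, were below 0, with a median log2 fold of -1.08, and 1 fell. DAP3, a GTP-binding protein of the small subunit, had 66.4 and 73.2 CPM in vein libraries, against 333 and 296 CPM in non-vein libraries (4.51-fold lower; edgeR adjusted p = 0.0144), and it was called without any 1 library too. Without non-vein replicate 2, 3 of the 5 were called.

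Few of the factors that build and serve the mitochondrial ribosome were called. Of 28 assembly factors 0 were called by edgeR's quasi-likelihood test, 7 were lower and 0 higher at an unadjusted p under 0.05, and DESeq2 called 4 lower. Over all tested genes 17.7% were lower at that unadjusted p, and DESeq2 called 14.3% lower among the genes it gave an adjusted p. The log2 fold was below 0 for 25 of the 28, against 49.8% of tested genes. Both vein libraries lay below both non-vein libraries for 16, against 33.1%. The median log2 fold of the 28 assembly factors was -0.82. Without vein replicate 2, edgeR called 4 of them and without vein replicate 1 it called 1. The 2 most abundant were malsu1, which keeps the subunits apart during assembly in mammals, at 122 and 95.6 CPM in vein libraries, against 181 and 156 CPM in non-vein libraries, and YBEY, an RNA-processing factor, at 62.7 and 28.9 CPM in vein libraries, against 80.8 and 77.7 CPM in non-vein libraries. Of 18 translation factors and message-binding proteins 15 had a log2 fold below 0, with a median of -0.55 and a median standard error of 0.57. At an unadjusted edgeR p under 0.05, 3 were lower and 0 higher. By adjusted p 2 fell (11.1%, against 7.33% of all tested genes). These were TUFM, the elongation factor that brings charged transfer RNA, at 127 and 124 CPM in vein libraries, against 387 and 290.2 CPM in non-vein libraries (2.70-fold lower; adjusted p = 0.0233), and SLIRP, which stabilises mitochondrial messages in mammals, at 89.7 and 80.3 CPM in vein libraries, against 203 and 189 CPM in non-vein libraries (2.30-fold lower; adjusted p = 0.0298). Neither was called without vein replicate 1 or without vein replicate 2, nor was SLIRP without non-vein replicate 1, and their adjusted p was then between 0.0585 and 0.0908.

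Of 18 genes that charge mitochondrial transfer RNAs 1 fell, with a median log2 fold of -1.10. That is 5.56%, no more than the 7.33% over all tested genes. Yet 17 of the 18 had a log2 fold below 0, against 49.8% of tested genes. At an unadjusted edgeR p under 0.05, 5 were lower and 0 higher, against 17.7% and 12.3%. The median standard error of their log2 folds was 0.77, against 0.28 for the 75 genes, so few calls do not show a level like the background. The called gene was QRSL1, a subunit of the enzyme that completes glutaminyl transfer RNA, at 14.8 and 20.9 CPM in vein libraries, against 664 and 545 CPM in non-vein libraries (33.9-fold lower; edgeR adjusted p = 0.00985). Of 20 genes that copy and express mitochondrial DNA 3 fell (15.0%), with a median of -1.14 and a median standard error of 0.66. Of these 20, 16 had a log2 fold below 0, and 7 were lower and 0 higher at an unadjusted edgeR p under 0.05. HSD17B10, which also serves in the enzyme that trims mitochondrial transfer RNAs in mammals, had 94.1 and 70.1 CPM in vein libraries, against 450.2 and 292 CPM in non-vein libraries (4.52-fold lower; adjusted p = 0.0178). SSBP1, the single-strand DNA-binding protein of mitochondria, had 62.0 and 36.4 CPM in vein libraries, against 191 and 173 CPM in non-vein libraries (3.70-fold lower; adjusted p = 0.0260). REXO2, an exonuclease that clears short RNA, was the other gene that fell (2.22-fold lower; adjusted p = 0.0495), and its adjusted p was 0.0932 to 0.143 without either vein library or non-vein replicate 1, so that 2 of the 20 remained called without non-vein replicate 1. Of 34 import genes 7 fell (20.6%), with a median of -1.02. They were led by HSPE1, the matrix co-chaperonin, TIMM8B, an intermembrane-space chaperone, and CHCHD4, which folds imported proteins. The count for import was 2 without vein replicate 1, 3 without vein replicate 2 and 1 without non-vein replicate 1.

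Regulators known to act on these genes in mammals gave no common direction. Of 11 tested, 6 had a log2 fold below 0, with a median of -0.53, and edgeR called 1 lower and 1 higher. At an unadjusted p under 0.05, 4 were lower and 1 higher, against 17.7% and 12.3% over all tested genes. NRF1, a transcription factor of nuclear genes for mitochondrial proteins, had 13.3 and 13.2 CPM in vein libraries, against 20.1 and 18.3 CPM in non-vein libraries (log2 fold -0.53, SE 0.46; edgeR adjusted p = 0.513). GABPA, another such factor, had 59.9 and 109 CPM in vein libraries, against 184 and 130 CPM in non-vein libraries (log2 fold -0.90, SE 0.37; adjusted p = 0.174). The coactivator gene PPARGC1A had 0 counts in all 4 libraries and was not tested. Both genes named MYC, which encode growth-promoting transcription factors, were called, in opposite directions. The one with identifier ENSDARG00000045695 fell, with 4.11 and 13.1 CPM in vein libraries, against 100.4 and 82.9 CPM in non-vein libraries (10.6-fold lower; adjusted p = 0.0268). The other, ENSDARG00000007241, rose, with 322 and 421 CPM in vein libraries, against 149 and 183 CPM in non-vein libraries (log2 fold 1.17, SE 0.25; adjusted p = 0.0397), and was not called without either vein library or non-vein replicate 1 (adjusted p of 0.0576 to 0.115).

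The messages that the mitochondrial ribosome translates did not share the lower level. The 13 mitochondrially encoded protein genes took 4.18% of counts in both vein libraries, against 3.31% and 4.0% in non-vein libraries. Their median log2 fold was 0.18, and 0 of 13 were called by edgeR or DESeq2, with 0 lower and 2 higher at an unadjusted p under 0.05. Without non-vein replicate 2, edgeR called 1 of them higher. MT-CO2, a cytochrome oxidase subunit and among the most abundant, had 13203 and 13011 CPM in vein libraries, against 10254 and 11606 CPM in non-vein libraries. Counts of these 13 genes were 8.85 and 10.6 times those of the 75 mitochondrial ribosomal protein genes in vein libraries, against 2.72 and 3.77 times in non-vein libraries, a mean ratio 3.0-fold higher in vein. The libraries were made from enriched mRNA, and the recovery of mitochondrial messages in that step was not tested.

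The nuclear-encoded partners of those products stood between. Nuclear-encoded respiratory chain and ATP synthase genes took 2.65% and 2.29% of counts in vein libraries, against 4.72% and 4.44% in non-vein libraries. Of 89 tested, 25 fell, with a median log2 fold of -0.71, and 8 were called without vein replicate 1, 7 without vein replicate 2 and 13 without non-vein replicate 1. The lowest adjusted p belonged to cox6b1, of cytochrome oxidase, at 12.5 and 19.5 CPM in vein libraries, against 337 and 373 CPM in non-vein libraries (22.2-fold lower; edgeR adjusted p = 0.00985), and next came the ATP synthase genes ATP5F1C (3.01-fold lower; adjusted p = 0.0157) and ATP5F1B (2.91-fold lower; adjusted p = 0.0162).

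Genes of the cytosolic ribosome were lower as well. They took 3.52% and 3.54% of counts in vein libraries, against 8.16% and 9.13% in non-vein libraries, 2.45-fold lower in vein. Of 79, 70 fell, with a median log2 fold of -1.16, led by RPL3, RPS12 and RPS26 (ENSDARG00000030408), but 9 were called without vein replicate 1 and 28 without vein replicate 2. The median fold was then -1.18 and -1.19. The ratio of cytosolic to mitochondrial ribosomal protein counts was 7.44 and 9.01 in vein libraries, against 6.69 and 8.61 in non-vein libraries, and the groups overlapped. Of 26 genes that build cytosolic ribosomes in the nucleolus 14 fell, with a median of -1.52. NHP2 had 102 and 72.5 CPM in vein libraries, against 426 and 362 CPM in non-vein libraries (4.52-fold lower; edgeR adjusted p = 0.0157). Next were BYSL, a small-subunit processing factor, and npm1a, a nucleolar chaperone (adjusted p = 0.0157 and 0.0160). The nucleolar count was 9 without vein replicate 1.

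**Figure D5:**
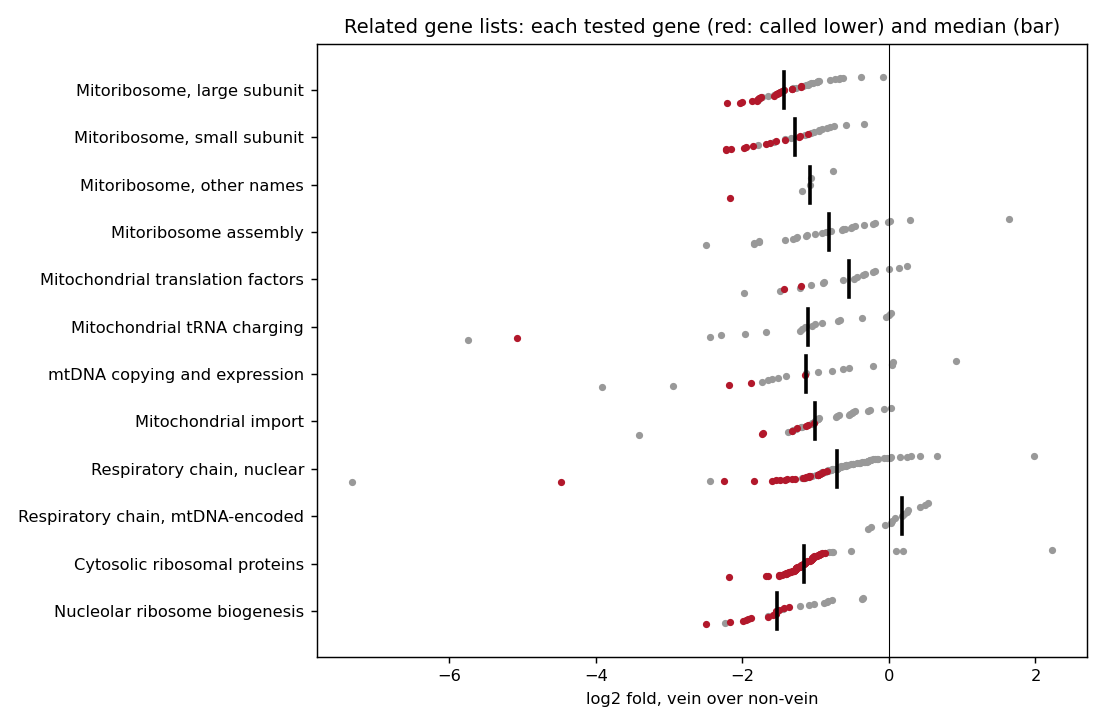
Log2 fold of vein over non-vein for each tested gene of the mitochondrial ribosome and of related lists, red where called lower, with a bar at the median of each list. The medians lie between -1.52 and -0.55 for all lists except the mitochondrially encoded genes, at 0.18.

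Markers of several other cell types and states differed between the same libraries, where 7.33% of all tested genes fell and 4.11% rose. Of 30 tested cell cycle genes 21 fell and 0 rose, with a median log2 fold of -3.25, and the list took 0.0832% and 0.0753% of counts in vein libraries, against 0.707% and 0.550% in non-vein libraries. CDK1, the mitotic kinase, had 18.9 and 14.0 CPM in vein libraries, against 322 and 292 CPM in non-vein libraries (edgeR adjusted p = 0.00985). Of 15 leukocyte and blood progenitor markers 8 fell and 0 rose, with a median of -4.22 and a share of 0.0109% and 0.0281% in vein libraries, against 0.323% and 0.264% in non-vein libraries. Of these 15, gfi1aa and cd74b had 0 counts in both vein libraries, and 7 had 0 counts in vein replicate 1. Fold sizes at this floor are poorly fixed: the list median was -9.695 without vein replicate 2 and -3.581 without vein replicate 1. CORO1A, an actin regulator of leukocytes, had 16.9 and 35.2 CPM in vein libraries, against 525 and 450 CPM in non-vein libraries (adjusted p = 0.0144). The leukocyte count was 14 without vein replicate 2. The part of cycling cells and of blood cells in the lower mitochondrial ribosomal values was not tested.

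Endothelial and muscle markers went the other way. Over all tested genes 4.11% rose, and 12.3% were higher at an unadjusted edgeR p under 0.05. Of 18 tested pan-endothelial genes 10 rose and 0 fell, and the list took 1.75% and 1.49% of counts in vein libraries, against 0.432% and 0.625% in non-vein libraries. Without vein replicate 2 or non-vein replicate 1, 5 were called. Of 11 vein and lymphatic genes 7 rose, with a share of 0.683% and 0.6995% in vein libraries, against 0.0414% and 0.118% in non-vein libraries. Of 14 tested skeletal muscle genes 1 rose, ckma, while 11 were higher at an unadjusted p under 0.05 and DESeq2 called 11 higher, and the list took 0.308% and 0.823% of counts in vein libraries, against 0.0877% and 0.224% in non-vein libraries. The muscle count was 11 without vein replicate 1, 8 without non-vein replicate 2 and 0 without vein replicate 2 or non-vein replicate 1. Erythroid markers took 0.233% and 0.430% in vein libraries, against 0.186% and 0.213% in non-vein libraries, with 0 of 12 called in either direction by edgeR, 1 lower and 3 higher at an unadjusted p under 0.05 and the same numbers called by DESeq2. By edgeR, 1 erythroid marker was called higher without vein replicate 1, 1 lower without vein replicate 2 and 3 higher without non-vein replicate 2. Neutrophil markers took 0.213% and 0.267% of counts in vein libraries, against 0.149% and 0.171% in non-vein libraries, and srgn, a granule proteoglycan gene, was the 1 of 6 that rose. The median log2 fold of the neutrophil list was only 0.13, with 0.82 without vein replicate 1 and -0.46 without vein replicate 2. Of the neutrophil list, 2 were called higher without non-vein replicate 1, and 1 was also called lower without vein replicate 2.

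Of 3 tested macrophage markers 1 fell, csf1rb, a receptor gene, with 1 and 28 counts in vein libraries, against 1335 and 1180 counts in non-vein libraries (edgeR adjusted p = 0.0299), and csf1ra and c1qa had 0 counts in all 4 libraries. Of 6 thrombocyte markers 2 fell and 1 rose, of 10 stromal and mural markers 1 fell and 1 rose, and of 9 epidermal markers 1 fell and 1 rose. Over all tested genes 7.33% fell and 4.11% rose, and 1 call in lists this short does not set them apart from that. Thrombocyte calls were 4 lower and 0 higher without vein replicate 2, and 1 lower and 0 higher without non-vein replicate 1. Stromal and mural calls were 1 lower and 2 higher without vein replicate 1, 0 lower and 1 higher without non-vein replicate 1, and 0 lower and 3 higher without non-vein replicate 2. Epidermal calls were 1 lower and 2 higher without vein replicate 1, 0 in both directions without vein replicate 2, and 0 lower and 1 higher without non-vein replicate 2. Without vein replicate 2, 1 macrophage marker was also called higher. Among 2 tested lymphocyte markers edgeR called 0, DESeq2 called 1 lower, and 1 was lower at an unadjusted p under 0.05, while edgeR called 1 lower without vein replicate 1. Among 8 neural and pigment markers edgeR called 0, DESeq2 called 1 higher, and 1 was higher at an unadjusted p under 0.05, while edgeR called 1 higher without vein replicate 1. The fits without 1 library could test more markers, up to 15 for muscle, 7 for thrombocytes, 11 for stroma and 7 for macrophages. They tested up to 3 lymphocyte and 10 neural and pigment markers. Calls in these fits need not fall among the markers tested with all libraries. The part of all these other cell types in the mitochondrial ribosomal values was likewise not tested.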

How the data were processed

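Libraries of enriched mRNA were prepared from the 4 sorted samples, and group and replicate were read from the sample titles. Software named in the submitters' processing notes comprises DESeq2, RSEM, HISAT2, StringTie 1.3.1, Bowtie2 2.2.8 and fastp 0.18.0, with GRCz11 as build and no role for any of them. Strand handling was not given in the sources used here, nor was the counting mode. The authors deposited one table of estimated counts and one of FPKM values. The columns of both are called FPKM per the file headers. The first was read as rounded expected counts because every value is whole, and because in each library 9 to 15 genes with no count have a positive FPKM. FPKM served to compare levels between genes and in alternatives.

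A gene name table supplied with the data paired 23608 of 25522 Ensembl identifiers with a symbol. The 75 genes and all lists were chosen with earlier results of these data known. After filterByExpr at a minimum count of 10, TMM scaling preceded the quasi-likelihood test of edgeR 4.0.16 in R 4.3.3 (legacy method, group as single factor). Benjamini-Hochberg adjustment covered all tested genes, and adjusted p under 0.05 was called. The common biological coefficient of variation came to 0.699. The code was checked on simulated data, with folds that were not set to match those of the 75 genes. Lists are described by counts and medians, and shares are of library totals. Kinases, binding proteins and rpl7l1, whose symbols begin alike, were left out of the cytosolic ribosomal protein list.

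Per subunit, the text names the 8 lowest adjusted p among called genes, the 4 highest and 4 lowest folds, and the 4 highest and 2 lowest mean FPKM, and per list up to 3 called genes or the 2 most abundant. Genes named outside this rule, such as MRPL38, mrps18c, MRPL12, MRPS35, MRPL33, MRPS5, NRF1, GABPA and PPARGC1A, were picked after their values were seen. Placement in the ribosome follows mammalian structures, and the groups of genes per place were assigned for this report and need not be complete. Alternatives were DESeq2 1.42.0, its size factors within edgeR, unscaled totals, omission of the filter, a minimum of 50 counts in 2 libraries, edgeR's version 4 method, robust estimation, limma 3.58.1 on log2(FPKM + 1) or log2(FPKM + 0.1) where mean FPKM reached 1 and on log2(FPKM + 1) unfiltered, a replicate block, removal of ribosomal, haemoglobin and mitochondrially encoded genes, and each library left out, where a lone library is assumed to vary like the other group. A planned search of promoters for motifs was not made.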

Additional observations from a re-analysis of the deposited data

How the results depend on the processing

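No alternative called any of the 75 genes higher. Of 528 values of 33 named genes under alternatives, 498 kept direction and side of the threshold, 25 fell short of it, 4 newly passed it and 1 changed sign, the log2 fold of mrpl34, 0.25 without vein replicate 2 and as low as -0.51 without vein replicate 1. Calls in the large subunit were 38 with DESeq2, 36 with the edgeR version 4 method, 40 with limma on log2(FPKM + 1), 38 on log2(FPKM + 0.1) and 12 to 22 with 1 library left out, beside 22. Calls in the small subunit were 21, 20 and 23 under the first 3 of these and 7 to 13 with 1 library left out, beside 13. Over all genes, 1170 were lower, with 2389 under DESeq2, 1881 under edgeR version 4, 2137 and 1769 under limma with pseudocounts 1 and 0.1, 716 with the replicate block and 622 to 1313 with 1 library left out. Higher genes numbered 656, with 1693 under DESeq2, 1092 with no filter, 1332 under edgeR version 4, 1163 under limma with pseudocount 1, 333 under limma with no filter and 408 to 942 with 1 library left out. The large-subunit median log2 fold ran between -1.54 and -1.24 with 1 library left out and the small-subunit median between -1.57 and -1.15, with -1.49 under limma with pseudocount 0.1, and their difference between -0.10 and 0.10. The cause of these shifts was not tested. The median of all tested genes moved to -0.14 under limma with pseudocount 0.1, and to -0.14, -0.28 and 0.12 without vein replicate 1, vein replicate 2 and non-vein replicate 2, with medians of the 75 genes of -1.50, -1.48, -1.24 and -1.48 in the same fits.

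The labels do not say what a replicate number marks. Deviations of same-numbered libraries from their group means correlated at 0.044 over 15953 genes. Among the 75 genes, replicate 1 was the higher in 56 between vein libraries and in 61 between non-vein libraries. The same was not counted over all tested genes. A single correlation over all genes cannot exclude a shared sort or batch, and pairing was not settled. The replicate block called 29 of the 75 genes, 26 of them among the 35, and it called 4.49% of all tested genes lower. The summed shares kept direction in every alternative run, with log2 ratios between -1.54 and -1.28 for the large and -1.53 and -1.26 for the small subunit when 1 library was left out. TMM-scaled totals, an alternative added after seeing the data, gave -1.31 and -1.30. A pseudocount does not enter the FPKM sums, which gave 1 value per subunit. With 2 libraries per group precision was limited: the median standard error of a log2 fold was 0.27 for called and 0.31 for uncalled genes.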
